A study of Mus musculus with 2 samples.

Results

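The 7 microRNA genes described here were picked for the genes that contain them: Mir764, Mir1912, Mir1264, Mir1298 and Mir448 in introns of Htr2c, Mir204 in an intron of Trpm3, and Mir211 in an intron of Trpm1. They were found by gene symbol among the 1973 microRNA genes of the deposited tables. The set was chosen by host gene and with its CPM in these same libraries already known, so the levels are a description and carry no test. The tables come from microRNA sequencing of total RNA taken at postnatal day 0 from B6NCrl mouse hindbrain. The series has 1 group of 2 libraries with no treatment named, each made from the single hindbrain of another pup (pup 3 and pup 1), whose sex was not collected. All 7 genes had counts in both libraries, and 6 of the 7 reached 10 CPM (a gene's same-strand counts per 1000000 such counts of the library) in both. No reads lay on the opposite strand of any of them.

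The choroid plexus is a sheet of epithelial cells over a core of vessels that hangs into the brain ventricles and secretes cerebrospinal fluid. The ventricle of the hindbrain holds one such plexus. Htr2c encodes the serotonin receptor 5-HT2C, which is known for its very high level in choroid plexus epithelium and is also made by neurons. Trpm3 and Trpm1 encode related cation channels. Trpm3 is known from choroid plexus and retinal pigment epithelium, Trpm1 from melanocytes and ON bipolar cells of the retina. A microRNA in an intron is usually cut from the transcript of its host, and its mature strand then guides Argonaute to messenger RNAs through its seed, bases 2 to 8. The tables list microRNA genes only. Messenger RNAs of the hosts or of other choroid plexus genes were not measured, so the cell of origin could not be checked beyond the microRNAs themselves.

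The mature sequences are shown first because a shared seed means a shared set of possible targets. RefSeq (GRCm38.p6) lists 12 mature strands for the 7 genes, with 11 distinct seeds. The seed is in capitals:
miR-1298-5p: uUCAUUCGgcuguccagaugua
miR-1298-3p: cAUCUGGGcaacugauugaacu
miR-448-5p: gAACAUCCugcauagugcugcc
miR-448-3p: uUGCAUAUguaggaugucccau
miR-1264-3p: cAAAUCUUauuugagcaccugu
miR-764-5p: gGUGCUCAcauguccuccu
miR-764-3p: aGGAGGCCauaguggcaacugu
miR-1912-3p: cACAGAACaugcagugagaacu
miR-204-5p: uUCCCUUUgucauccuaugccu
miR-204-3p: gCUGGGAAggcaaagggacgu
miR-211-5p: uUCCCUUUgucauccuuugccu
miR-211-3p: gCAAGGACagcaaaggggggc

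The microRNAs of Htr2c did not form a seed family. None of their 8 listed mature strands shared a seed with another of them, nor with those of Mir204 or Mir211. The one seed that occurred more than once among the members was UCCCUUU, at the 5p strands of miR-204 and miR-211. Those 5p strands were identical at 21 of 22 positions and differed by A17U, counted from 1 at the 5′ end, with the miR-204 base first. Their 3p strands matched at 14 of 21 positions. Outside the members, RefSeq lists the UCCCUUU seed for miR-7670-3p, whose gene was at 0.332 CPM in pup 3, against 0.407 CPM in pup 1, below the level that 3 counts give.

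The hairpins of Mir1298, the most abundant Htr2c microRNA, of Mir1912, one of its scarcest, and of the Trpm pair are given to show how far each pair is alike (RefSeq, GRCm38.p6, plus strand), with the mature strands in capitals. Mir1298 lies at chrX:147064905-147065002, Mir1912 at chrX:147009441-147009527, Mir204 at chr19:22750605-22750672 and Mir211 at chr7:64205806-64205911.
Mir1298: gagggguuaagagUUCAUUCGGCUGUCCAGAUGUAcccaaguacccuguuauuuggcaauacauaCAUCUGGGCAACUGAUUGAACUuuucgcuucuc
Mir1912: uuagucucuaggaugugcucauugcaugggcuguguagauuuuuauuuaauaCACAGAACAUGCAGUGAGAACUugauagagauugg
Mir204: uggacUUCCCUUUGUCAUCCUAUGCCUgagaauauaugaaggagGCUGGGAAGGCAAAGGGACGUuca
Mir211: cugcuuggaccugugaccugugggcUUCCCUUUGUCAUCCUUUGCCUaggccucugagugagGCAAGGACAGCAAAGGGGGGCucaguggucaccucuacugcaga

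The longest run of bases shared by the hairpins of Mir204 and Mir211 was 17 nt, against 6 nt for Mir1298 and Mir1912. None of the 7 precursors shared 20 nt with another annotated microRNA gene on either strand, while 929 of the 1894 precursors with a sequence did. This matters because the counts leave out multimapping reads, which were 42.0% of the library in pup 3 and 40.2% in pup 1. Precursors of the members were 68 to 112 nt long. Their GC content ran from 36.0% in Mir1264 and 37.9% in Mir1912 to 52.7% in Mir448 and 57.5% in Mir211, against a median of 51.0% over all precursors.

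Levels of the 7 genes covered more than 2 orders of magnitude and fell into 2 ranges, 4 genes at 569 CPM or more and 3 at 25.6 CPM or less. The 7 together held 1.16% of counts in pup 3 and 1.27% in pup 1. Mir1298 was the most abundant, with 19293 counts or 6405 CPM in pup 3 and 16202 counts or 6587 CPM in pup 1. It averaged 6496 ± 129 CPM (SD, n = 2, as for all following values with ±) and stood at rank 36 in pup 3 and rank 31 in pup 1 among the 1973 genes.

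Mir204, the gene of the pair with the shared seed that is best known from choroid plexus and pigment epithelium, reached 3550 CPM (rank 59) in pup 3 and 4614 CPM (rank 48) in pup 1. Mir448 was at 968 CPM in pup 3, against 916 CPM in pup 1. Mir1264 was at 665 CPM in pup 3, against 569 CPM in pup 1. For each of these 4 genes the lower of the pups lay above the higher pup of the next gene, so that their order, Mir1298, Mir204, Mir448, Mir1264, was the same in both.

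The remaining genes had few reads. Mir764 had 55 counts or 18.3 CPM in pup 3 and 62 counts or 25.2 CPM in pup 1. Mir1912 had 77 counts or 25.6 CPM in pup 3 and 40 counts or 16.3 CPM in pup 1. Mir764 and Mir1912 changed places between the pups, and their levels did not differ beyond the spread.

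Mir211 was the lowest member, with 30 counts or 9.96 CPM in pup 3 and 34 counts or 13.8 CPM in pup 1. Its value in pup 3 lay just under 10 CPM, and its exact 95% Poisson interval, 6.72 to 14.2 CPM, included that level. Mir211 lay below Mir1912 in both pups, but in pup 1 the Poisson intervals of 9.57 to 19.3 CPM for Mir211 and 11.6 to 22.1 CPM for Mir1912 overlapped.

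**Figure D1:**
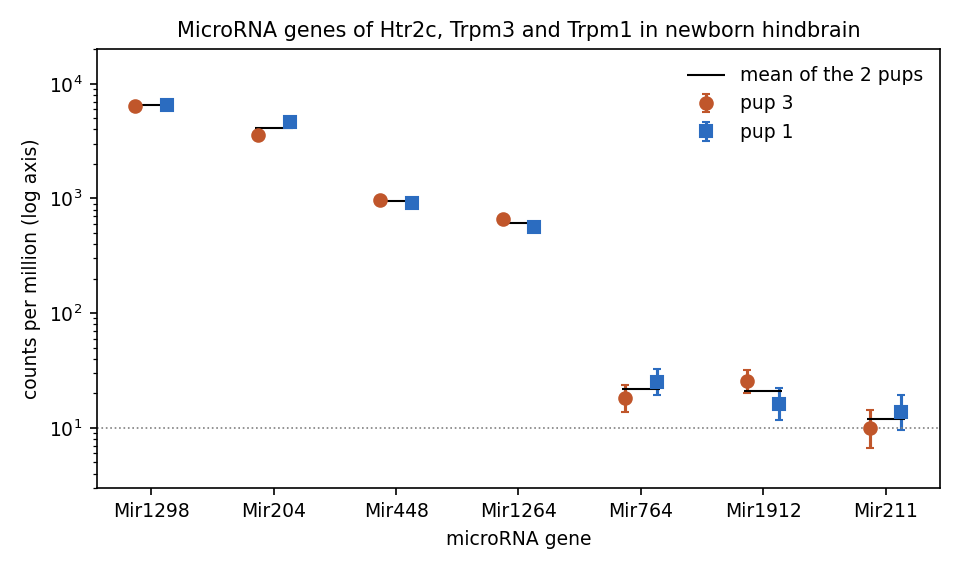
CPM (log axis) of the 7 microRNA genes, circles for pup 3 and squares for pup 1, with exact 95% Poisson intervals that cover counting error only, a black bar for the mean and a dotted line at 10 CPM. Mir1298, Mir204, Mir448 and Mir1264 lie at 569 CPM or more in both pups, and Mir764, Mir1912 and Mir211 between 9.96 and 25.6 CPM.

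Within Htr2c, 1 gene held most of the reads. Htr2c spans chromosome X from 146962513 to 147197277 on the plus strand (mm10, GENCODE M21), and its 5 microRNAs summed to 24344 counts or 8081 CPM in pup 3 and 19956 counts or 8113 CPM in pup 1. Mir1298 made up 79.3% of that sum in pup 3 (exact 95% binomial interval 78.7% to 79.8%) and 81.2% in pup 1 (80.6% to 81.7%). Mir448 made up 11.98% in pup 3 and 11.3% in pup 1, and Mir1264 made up 8.23% in pup 3 and 7.02% in pup 1. Mir764 and Mir1912 each held between 0.200% and 0.316%.

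Mir764, Mir1912, Mir1264 and Mir1298 lie in this order in one intron, the second of the principal transcript Htr2c-201, which is 90779 bases long. Their starts are 39.7, 46.9, 48.1 and 102 kb from the start of Htr2c. Mir448 lies in the fourth intron of that transcript, 196 kb from the start. Level did not follow the order along the gene: the pair nearest to the start was lowest, Mir1298 in the middle was highest, and Mir448 near the end came between Mir1298 and Mir1264.

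Mir764 and Mir1912, which lie 7074 bases apart, overlapped in level between the pups. Mir1912 and Mir1264 are separated by 1073 bases of the same intron. Mir1264 had 26.0 times the counts of Mir1912 in pup 3, with an exact interval of 20.7 to 33.1. In pup 1 it had 35.0 times as many (25.6 to 49.2). Mir1298 had 9.63 times the counts of Mir1264 in pup 3 and 11.6 times in pup 1, and 6.62 times those of Mir448 in pup 3 and 7.19 times in pup 1. Against the 2 lowest genes of its intron, Mir1298 had 351 times the counts of Mir764 in pup 3 and 261 times in pup 1, and 251 times the counts of Mir1912 in pup 3 and 405 times in pup 1. These are ratios of read counts. How well each small RNA is captured in a library was not tested.

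**Figure D2:**
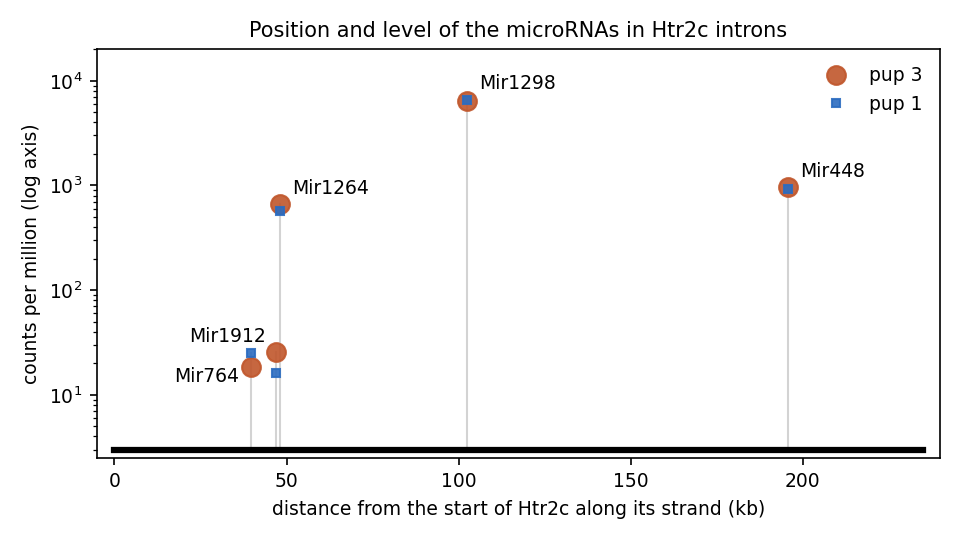
CPM (log axis) of the 5 Htr2c microRNAs against their distance in kb from the start of Htr2c, large circles for pup 3 and small squares for pup 1, with the gene as a black bar. Mir1912 and Mir1264 stand almost at one place and differ 26.0-fold in pup 3 and 35.0-fold in pup 1, and Mir1298 is highest in both pups.

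A wide range within one host was also seen in other genes. Among all host genes with at least 3 microRNA genes on their strand, 10 had at least 3 of them at 10 counts or more in both libraries, with overlapping hosts of the same microRNAs taken as 1. Cdc20b, with 2 such genes 967-fold apart, was not among the 10. In Htr2c the highest mean CPM was 311 times the lowest, and in the other 9 hosts this ratio ran from 13.5 in Mcm7 to 1354 in Mir17hg, with a median of 141. By this ratio of means, Mir17hg and Mir99ahg (374-fold) exceeded Htr2c. Within single pups Mir17hg did so too (1337 in pup 3, 1368 in pup 1). Mir99ahg did not, with 347 in pup 3 and 401 in pup 1, against 351 and 405 for Htr2c. Sfmbt2, at 277 by means, exceeded Htr2c in pup 3 (370) but not in pup 1 (314). The place of Htr2c beside Mir99ahg and Sfmbt2 thus depends on the measure or the pup. In Mir17hg and Mir99ahg, the lowest microRNA has a 20-nt stretch in common with another annotated microRNA gene and so may be undercounted. No Htr2c microRNA has such a stretch, but matches elsewhere in the genome were not searched. With genes that share such a stretch left out, a choice made after seeing the data, 7 hosts remained. Among them Htr2c had the highest ratio, followed by Mir17hg at 281 and Mirg at 145. The values of Htr2c (351 in pup 3, 405 in pup 1) and of Mir17hg (204 in pup 3, 410 in pup 1) overlapped, so this order does not hold beyond the spread. Mir1298 held 80.2% of the Htr2c counts over all 7 microRNA genes annotated there.

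**Figure D3:**
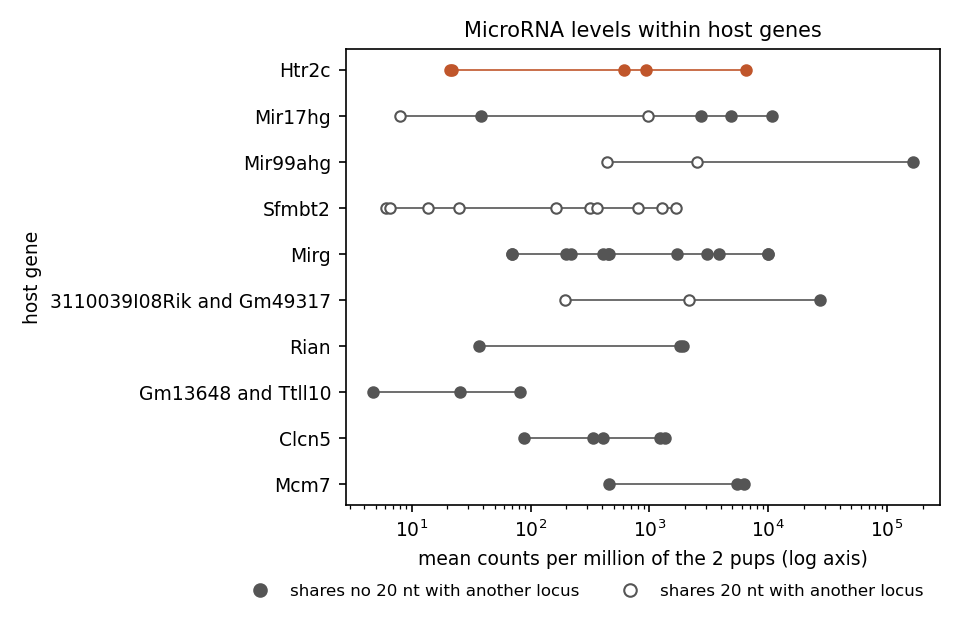
Mean CPM of the 2 pups (log axis) for the microRNA genes of the 10 host genes, with 1 point per microRNA gene and a line from the lowest to the highest. Open points have 20 nt in common with another annotated microRNA gene and may be undercounted. Htr2c, at the top, spans 20.9 to 6496 CPM, and hosts with equal contents share a line.

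Set against Mir204, the Htr2c microRNAs together were more abundant. Their summed counts were 2.28 times those of Mir204 in pup 3, with an exact interval of 2.22 to 2.33. The ratio was 1.76 in pup 1 (1.72 to 1.80), and the mean was 2.02 ± 0.366. Mir1298 alone had 1.80 times the counts of Mir204 in pup 3 and 1.43 times in pup 1. Mir448 reached 0.273 of the Mir204 counts in pup 3 and 0.198 in pup 1, and Mir1264 reached 0.187 in pup 3 and 0.123 in pup 1. Mir764 and Mir1912 stood far under it. Mir204 had 194 times the counts of Mir764 in pup 3 and 183 times in pup 1.

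Mir211, whose 5p strand differs from that of Mir204 at 1 base, was at 0.00281 of the Mir204 counts in pup 3, with an exact interval of 0.00189 to 0.00401. In pup 1 it was at 0.00300 (0.00207 to 0.00419). In counts, Mir204 exceeded Mir211 357-fold in pup 3 and 334-fold in pup 1. This ratio was alike in the pups, within counting error. Since the 5p strands differ at 1 base, counts per gene cannot show whether reads of Mir204 were assigned to Mir211. This was not tested. The intron of Mir211 is the sixth of the principal transcript Trpm1-201, 52.0 kb from the start of Trpm1 on chromosome 7. That of Mir204 is the sixth of the principal transcript Trpm3-203, and Mir204 lies 612 kb from the start of Trpm3 on chromosome 19.

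The pups were then compared gene by gene with an exact two-sided binomial test on 395 genes, scaled by the trimmed mean of M-values (TMM) and adjusted by the Benjamini-Hochberg method at 0.05. This test sees only whether these libraries differ beyond counting error. With no replicate on either side it says nothing about a condition. In bulk tissue, fewer cells of a type and less RNA per cell cannot be told apart. Of the 7 members, 3 were called, against 46.8% of all tested genes (25.6% higher and 21.3% lower in pup 3), so the members' share was close to the background. That background pools genes of every depth, and the test detects smaller folds at higher counts. The called members had at least 1400 counts in each library, and no member with 77 counts or fewer was called.

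Mir204 had the clearest difference. It was lower in pup 3, with a log2 fold of -0.43 (95% counting interval -0.47 to -0.39, adjusted binomial p = 1.57e-107). Among the 149 genes that reached 1000 counts in each library, the SD of the log2 fold was 0.32, and 13 of them had a lower fold than Mir204. Mir1298 was lower in pup 3 by a small amount (log2 fold -0.093, interval -0.12 to -0.063, adjusted binomial p = 4.85e-09), and 53 of the 149 had a lower fold.

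Mir1264 was higher in pup 3 (log2 fold 0.17, interval 0.072 to 0.27, adjusted binomial p = 0.00175). With TMM taken over the tested genes alone, chosen after seeing the data, its log2 fold was 0.097 and the call was lost (adjusted p = 0.107). That scaling lowered all log2 folds by 0.13 relative to plain totals, against 0.053 for the one used. Under it 76 of the tested genes were called higher and 105 lower in pup 3, against 101 higher and 84 lower as reported. Mir448 did not pass the test (log2 fold 0.027, interval -0.052 to 0.11, adjusted binomial p = 0.655).

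The 3 genes of low count did not pass the test either. Their log2 folds were 0.59 for Mir1912 (interval 0.030 to 1.19, adjusted binomial p = 0.0649), -0.52 for Mir764 (-1.07 to 0.029, adjusted binomial p = 0.117) and -0.52 for Mir211 (-1.28 to 0.23, adjusted binomial p = 0.273). With plain totals as the scale Mir1912 passed (log2 fold 0.64, adjusted binomial p = 0.0417).

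The sum of the Htr2c microRNAs differed little between the pups (log2 fold -0.059, counting interval -0.086 to -0.032), while Mir204 was lower in pup 3. As a result the ratio of that sum to Mir204 in pup 3 was 1.29 times the ratio in pup 1 (exact interval 1.25 to 1.34, counting error only). For single genes this quotient was 1.26 for Mir1298, 1.37 for Mir448 and 1.52 for Mir1264. It was 2.04 for Mir1912 (exact interval 1.38 to 3.08) and 0.941 for Mir764 (0.642 to 1.38), whose interval includes an equal ratio. These quotients are free of library scaling, since both counts come from one library. Within Htr2c, the ratio of Mir1298 to Mir1264 in pup 3 was 0.832 times that in pup 1 (exact interval 0.774 to 0.894), and that of Mir1298 to Mir1912 was 0.619 times (0.411 to 0.918). Neither interval includes an equal ratio. For Mir1264 to Mir1912 the quotient was 0.743 (0.491 to 1.11) and for Mir1298 to Mir764 it was 1.34 (0.918 to 1.97), and both intervals include an equal ratio. With Mir448, the quotient was 0.920 for Mir1298 to Mir448 (0.867 to 0.976) and 0.905 for Mir448 to Mir1264 (0.828 to 0.989).

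**Figure D4:**
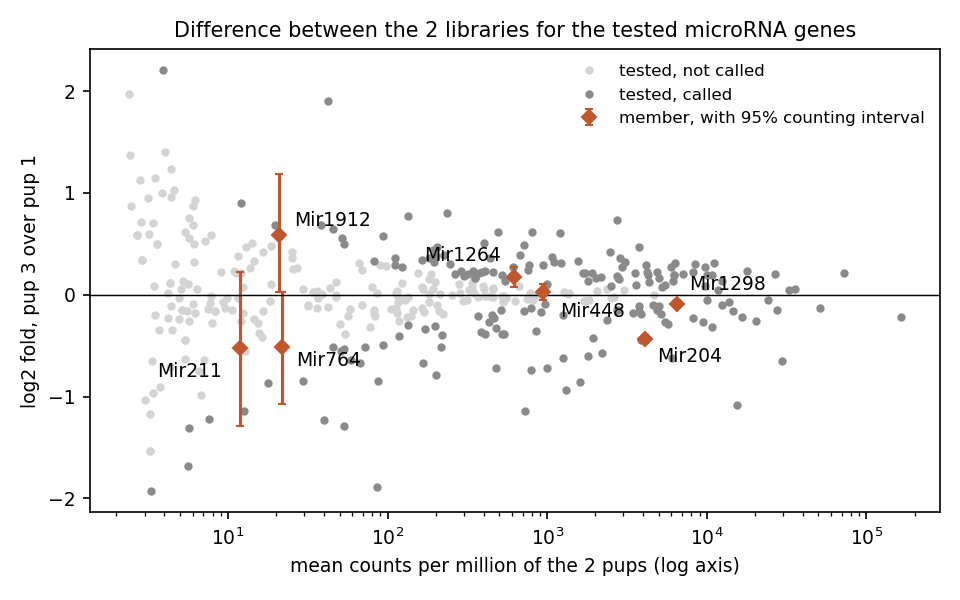
Log2 fold of pup 3 over pup 1 against mean CPM (log axis) for the 395 tested genes, light points not called and dark points called, with the 7 members as diamonds and their 95% counting intervals. Mir204 lies at -0.43, Mir1298, Mir448 and Mir1264 lie between -0.093 and 0.17, and the intervals widen for the 3 genes of low count.

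Genes whose levels lay nearest to the members, by distance in log2(CPM + 1) over the 2 libraries, were Mir598 and Mir106b for Mir1298, Mir541 and Mir34c for Mir204, Mir676 and Mir92-1 for Mir448, and Mir203 and Mir384 for Mir1264. At the low end they were Mir344b and Mir8112 for Mir764, and Mir200c and Mir344f for Mir1912. With 2 libraries this measures likeness of level only.

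MicroRNAs of other epithelial and ciliated cells are of interest beside these genes, since the choroid plexus is an epithelium with tufts of cilia. Of 5 genes known from multiciliated cells, 3 reached 10 CPM in both pups, and the list summed to 9311 CPM in pup 3 and 9205 CPM in pup 1. Mir449a led with 5463 CPM in pup 3, against 4999 CPM in pup 1. Mir34c followed with 3706 CPM in pup 3, against 4062 CPM in pup 1, and Mir34b was at 135 CPM in pup 3, against 133 CPM in pup 1. Mir449b and Mir449c had 2.32 and 4.32 CPM in pup 3 and 4.47 and 6.50 CPM in pup 1. Between the pups 1 gene of this list was called higher (Mir449a, log2 fold 0.075), 1 lower (Mir34c, -0.19) and 3 were not called. Of all tested genes, 25.6% were called higher and 21.3% lower. The median log2 fold of the list was -0.19 against 0.020 over all tested genes. That median is the value of Mir34c. Only Mir449b (7 counts in pup 3, 11 in pup 1) and Mir449c (13 in pup 3, 16 in pup 1) had lower folds, and neither was called. With TMM over the tested genes, Mir34c alone was called.

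The epithelial list of 7 genes (the Mir200 family with Mir203 and Mir205) was scarcer, at 862 CPM in pup 3 and 713 CPM in pup 1, and 5 of 7 reached 10 CPM. Mir203, known from stratified epithelia such as skin, held most of it, with 658 CPM in pup 3 and 555 CPM in pup 1. Of the rest, Mir429 was highest, at 92.95 CPM in pup 3 and 71.1 CPM in pup 1, and Mir141 was lowest, at 3.98 CPM in pup 3 and 0.813 CPM in pup 1. Mir203, Mir429 and Mir200c were called higher in pup 3, none lower, and 4 were not called, against 25.6% of all tested genes called higher and 46.8% called in all. The median log2 fold was 0.33, and with TMM over the tested genes 1 of the 7 was called. Whether the amount of epithelium in each piece of tissue had a part in the values of the members was not tested.

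The lists of further cell types ranged more widely. Their calls stand beside 25.6% of all tested genes called higher and 21.3% called lower in pup 3. The neuronal list summed to 28457 CPM in pup 3 and 25526 CPM in pup 1, with 4 of 11 tested genes called higher and 5 lower. The endothelial and mural list summed to 46651 CPM in pup 3 and 41846 CPM in pup 1, with 2 of 3 called higher. Mir145a (log2 fold -0.10) was not called. Mir126a, which held most of the sum, was called at a log2 fold of 0.057 (interval 0.044 to 0.070). The gap between the TMM scalings was wider than this fold, so its direction depends on the scaling. The mesenchymal list summed to 4917 CPM in pup 3 and 4308 CPM in pup 1. Mir214 and Mir140 were called higher, while Mir199a-2 (log2 fold -0.64) and Mir199b (-0.12) were not called, Mir199a-1 was not tested, and the median log2 fold of the 4 tested genes was 0.0032. The oligodendrocyte list summed to 2000.5 CPM in pup 3 and 1626 CPM in pup 1, with 2 of 3 called higher. The summed Htr2c microRNAs stood at 8081 CPM in pup 3 and 8113 CPM in pup 1. They thus lay above the mesenchymal and oligodendrocyte lists and below the neuronal, vascular and multiciliated ones. The neuronal genes other than Mir137 and Mir153 share 20 nt with another annotated microRNA gene. So do Mir199a-1, Mir199a-2, Mir199b, Mir219a-1 and Mir219a-2, while no Htr2c microRNA does. The neuronal, mesenchymal and oligodendrocyte sums may be undercounted, and this order holds for uniquely assigned reads only.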

How the data were processed

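The authors aligned the reads to mm10 and counted them per gene of GENCODE M4, per the deposited file listings. The aligner and the trimming: not given in the sources used here. The deposited values are raw counts per precursor gene, so the arms of a hairpin cannot be separated. What the columns hold was inferred from their layout: the second count column was taken as reads on the strand of the gene. Multimapping reads have no gene (42.0% of reads in pup 3, 40.2% in pup 1), and unmapped reads were 12.4% in pup 3 and 13.7% in pup 1. The libraries held 3012320 (pup 3) and 2459757 (pup 1) same-strand counts, and rows naming no gene were left out. The limit that a count of 0 allows is 3 counts, which is 0.996 CPM for pup 3 and 1.22 CPM for pup 1. Without molecular identifiers, intervals and this limit hold counting error alone. Read counts of different microRNAs also depend on how well each is ligated and amplified.

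Symbols, positions and hosts came from GENCODE M21 by Ensembl identifier without version (1894 of 1973 genes matched), and sequences from RefSeq by symbol, where all 7 members have mature strands and 6 of 7 a hairpin. A host is a gene that spans the precursor on its strand. CPM used plain same-strand totals. Folds (pup 3 over pup 1) used a prior of 0.5 counts and TMM factors over all gene rows (edgeR 4.0.16, R 4.3.3). Tested were genes that reached 10 counts in at least 1 library (scipy 1.17.1), and the script was tested on simulated data. The quasi-likelihood test of edgeR was not run, since neither side has replicates. DESeq2 1.42.0 gave size factors for an alternative scaling only. Named were the members, other microRNA genes of their hosts, the multiciliated and epithelial lists, the nearest genes in level of the members at 10 CPM or more, and hosts at the ends of the range. Cdc20b, Mir99ahg, Sfmbt2 and Mirg, and the genes of the neuronal, endothelial and mural, mesenchymal and oligodendrocyte lists, were named after their values were seen. Members and lists were chosen with earlier results of these data known.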

Additional observations from a re-analysis of the deposited data

How the results depend on the processing

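With all reads as the denominator, which includes reads without a gene, mean levels were 2738 CPM for Mir1298, 1722 for Mir204, 397 for Mir448, 260.0 for Mir1264, 9.17 for Mir764, 8.81 for Mir1912 and 5.02 for Mir211, and 3413 CPM for the Htr2c sum. Their order was unchanged. With either-strand counts Mir1298 was at 6304 CPM and the Htr2c sum at 7858 CPM. No alternative run here tests the ratio of the Htr2c sum to Mir204 or the shares within Htr2c: the members have no opposite-strand reads, no count under 3, and leaving out 1 of 2 pups gives the other pup's value. The ratio of highest to lowest level within Htr2c was 351 to 405 with 1 pup left out. Plain totals brought Mir1912 past the threshold (log2 fold 0.64). TMM over the tested genes, chosen after seeing the data, took Mir1264 below it (0.097), turned the uncalled fold of Mir448 to -0.047, and left 1 call in each of the multiciliated and epithelial lists. Mir204 and Mir1298 were called lower in pup 3 under all 6 alternatives to the reported fold. The number of genes called ran from 177 to 196 over these alternatives. No paired analysis was possible because the series has 1 group. Counting error limits Mir764, Mir1912 and Mir211 most.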

Other observations

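Further microRNA genes are annotated in the bodies of the hosts. In Htr2c, Gm22650 had 5 counts in pup 3 and 7 in pup 1. Gm24627, which RefSeq lists as the gene of miR-1911, had 0 counts in pup 3, which allows up to 0.996 CPM, and 1 count in pup 1. Mir6416, on the strand opposite to Trpm1, had no count in either library. The listed members thus held nearly all reads assigned to microRNA genes of Htr2c.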
